A study of Rattus norvegicus with 10 samples.

Results

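Psmb8, Psmb9, Psmb10, Psme1, Psme2, Tap1, Tap2, Tapbp, B2m and Nlrc5 are genes of the immunoproteasome and of peptide loading onto major histocompatibility complex (MHC) class I. They were taken by name from the bulk RNA-seq gene table and from the nucleus matrices of the rat dentate gyrus after traumatic brain injury (TBI). All 10 were found among the 14166 genes of the bulk table and among the 25399 features of the matrices. The set was chosen by the bulk difference between TBI and sham, since Psmb8 was among the leading bulk genes, so the bulk differences are given as a description without a test. The nuclei came from other rats, and the members were tested there.

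The tissue was the dentate gyrus on the injured side of male Sprague-Dawley rats, about 8 to 15 weeks old at injury. TBI rats had a craniectomy and, 3 days later, a moderate lateral fluid percussion injury (LFPI), in which a pulse of fluid strikes the intact dura. Sham rats had the same surgery and anesthesia without the pulse, and both were killed 3 weeks later after single housing. The naïve rat had no surgery. Bulk RNA was sequenced from 3 sham and 3 TBI rats. Single-nucleus RNA-seq (snRNA-seq) was made from 2 further TBI rats and from 1 sham and 1 naïve rat, which together formed the control group. Each library was 1 rat, no genetic modification was involved, and sham and TBI rats shared the craniectomy.

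The proteasome cuts proteins into peptides. When interferon signaling is active, the inducible catalytic subunits encoded by Psmb8, Psmb9 and Psmb10 replace those encoded by Psmb5, Psmb6 and Psmb7, which forms the immunoproteasome, and the activator PA28 (Psme1 and Psme2) caps it. Peptides then enter the endoplasmic reticulum through the transporter TAP (Tap1 and Tap2), tapasin (Tapbp) holds the class I heavy chain at TAP, and the light chain β2-microglobulin (B2m) completes the complex that shows the peptide to CD8 T cells. Nlrc5 is a transcriptional activator of these genes, and in the healthy brain endothelial cells and microglia are the cells best known for class I expression.

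Bulk libraries held 25121893 to 44649404 estimated counts. Of 55863 deposited nuclei 55124 passed the filters of the study, with a median of 1647 to 2652 UMIs (unique molecular identifiers, 1 per captured RNA) per rat, and pairs of nucleus libraries shared 45 to 60 barcodes. The nucleus libraries differed in entries that the matrices store with the value 0, which made up 1.63% of the stored entries in TBI 1, 27.5% in TBI 2, 11.1% in sham and 15.5% in naïve. A cluster of 717 nuclei that took no name held 303 and 382 nuclei of TBI 1 and the sham rat but 21 and 11 of TBI 2 and the naïve rat. In bulk, the summed marker levels of several cell classes differed between the groups. All 10 microglial markers measured in bulk (of 11 listed, none at 0 in every library) had a log2 fold change above 0, with a median of 1.03, and their summed level was 266 to 277 CPM (counts scaled to 1000000 per library) in sham and at least 474 CPM in every TBI library. For the 9 endothelial markers measured in bulk (of 10 listed, none at 0) the summed level was 269 to 288 CPM in sham and 305 to 531 CPM in TBI, and for the 9 astrocyte markers (of 10 listed, none at 0) it was 4162 to 5050 CPM in sham and 7015 to 10066 CPM in TBI. The 4 perivascular macrophage markers had a median log2 fold change of 1.16, with 9.74 to 11.8 CPM in sham and 16.1 to 46.6 CPM in TBI, and the 7 pericyte markers one of 0.57, with 104 to 133 CPM in sham and 135 to 211 CPM in TBI. All 10 oligodendrocyte markers had a log2 fold change below 0, with a median of -0.65 and overlapping summed levels. The part of these cell classes in the members' bulk differences was not tested, and in bulk tissue more cells of a type and more RNA per cell cannot be told apart.

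The windows from 250 bases before to 50 bases after the gene start were read from RefSeq (build GRCr8, which is not the Rnor_6.0 build behind the nucleus matrices) for 9 members. Interferon-responsive genes often carry an interferon-stimulated response element, here searched on both strands as GAAA, any 2 bases and GAAA again, and 7 of the 9 windows held it (Psmb8, Psmb10, Psme2, Tap1, Tap2, Tapbp and B2m). Of all 33469 RefSeq windows of this length, 3.92% held the motif. The gamma-activated site motif TTCNNNGAA, which reads the same on both strands, was in the Psmb8 window alone among the members and in 8.87% of all windows. No match overlapped between the 2 motifs in these windows. The windows of Psmb8 and Tap1, with the largest bulk log2 fold changes of a catalytic subunit and of a transporter subunit, of Psmb10 and Tapbp, which hold the first motif at 2 positions, and of B2m are shown 5′ to 3′ along each gene, with matches to either motif in capitals.
Psmb8 (chr20:4656982-4657281, minus strand): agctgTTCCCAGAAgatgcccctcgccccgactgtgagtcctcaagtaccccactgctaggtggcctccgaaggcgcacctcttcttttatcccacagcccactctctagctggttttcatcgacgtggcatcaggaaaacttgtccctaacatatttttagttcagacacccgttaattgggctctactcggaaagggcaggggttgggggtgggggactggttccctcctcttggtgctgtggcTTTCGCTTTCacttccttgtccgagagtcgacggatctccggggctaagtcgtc
Psmb10 (chr19:50743243-50743542, minus strand): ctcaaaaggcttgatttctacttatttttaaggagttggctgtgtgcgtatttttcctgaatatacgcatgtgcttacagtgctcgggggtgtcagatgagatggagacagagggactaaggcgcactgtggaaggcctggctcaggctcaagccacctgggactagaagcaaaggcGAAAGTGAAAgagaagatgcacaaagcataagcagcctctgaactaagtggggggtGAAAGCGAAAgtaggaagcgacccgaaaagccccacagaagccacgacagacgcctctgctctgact
Tap1 (chr20:4668494-4668793, minus strand): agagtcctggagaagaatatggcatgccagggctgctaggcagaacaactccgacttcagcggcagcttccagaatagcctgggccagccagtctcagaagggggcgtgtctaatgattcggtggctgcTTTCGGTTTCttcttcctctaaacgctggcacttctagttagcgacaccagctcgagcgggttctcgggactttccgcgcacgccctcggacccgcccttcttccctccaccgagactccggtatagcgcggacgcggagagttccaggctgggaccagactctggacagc
Tapbp (chr20:4967828-4968127, minus strand): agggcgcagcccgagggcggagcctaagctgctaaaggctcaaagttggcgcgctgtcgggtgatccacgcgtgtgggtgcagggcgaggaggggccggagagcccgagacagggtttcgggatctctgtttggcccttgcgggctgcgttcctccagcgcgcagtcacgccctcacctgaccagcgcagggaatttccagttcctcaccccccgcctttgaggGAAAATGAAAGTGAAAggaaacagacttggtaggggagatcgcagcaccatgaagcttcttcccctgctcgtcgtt
B2m (chr3:129549080-129549379, plus strand): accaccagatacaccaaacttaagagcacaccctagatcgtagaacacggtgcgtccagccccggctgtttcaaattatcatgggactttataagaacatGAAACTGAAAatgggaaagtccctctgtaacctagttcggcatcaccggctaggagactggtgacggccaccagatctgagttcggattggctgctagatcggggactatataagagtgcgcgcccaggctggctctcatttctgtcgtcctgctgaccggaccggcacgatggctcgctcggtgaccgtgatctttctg

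In Psmb8 the match to the interferon motif spans the gene start, from base -4 to base 6 (bases before the start are negative), and the match to TTCNNNGAA lies at -245 to -237. The Psmb10 matches lie at -73 to -64 and -17 to -8, and the pair in Tapbp, at -26 to -17 and -20 to -11, overlaps. The match lies at -121 to -112 in Tap1, at -53 to -44 in Psme2, at -41 to -32 in Tap2 and at -150 to -141 in B2m. Tap1 and Psmb9 are read in opposite directions, and 44 bases of their windows on chromosome 20 are shared. Whether a factor binds at these letters was not measured.

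In bulk tissue every member had a log2 fold change above 0 in TBI, and for 8 of the 10 every TBI library lay above every sham library. Over all 14166 genes, 11.7% lay higher in every TBI library and 49.4% had a log2 fold change above 0. Psmb8 differed most, by 1.62 ± 0.22 (SE) on the log2 scale, and Tap2 least, by 0.19 ± 0.16. The choice of the set used this contrast, so nothing is read from these counts and no test of the members is given in bulk. As background for the partner genes below, 0% of the 14166 genes passed an FDR of 0.01 with edgeR's quasi-likelihood test or with limma, and 9.6% had an unadjusted edgeR p under 0.05 (8.2% higher in TBI). DESeq2 placed 1.17% of all genes higher in TBI past that FDR, and 3.26% when p-values were adjusted over genes with p under 0.05 only.

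**Figure D1:**
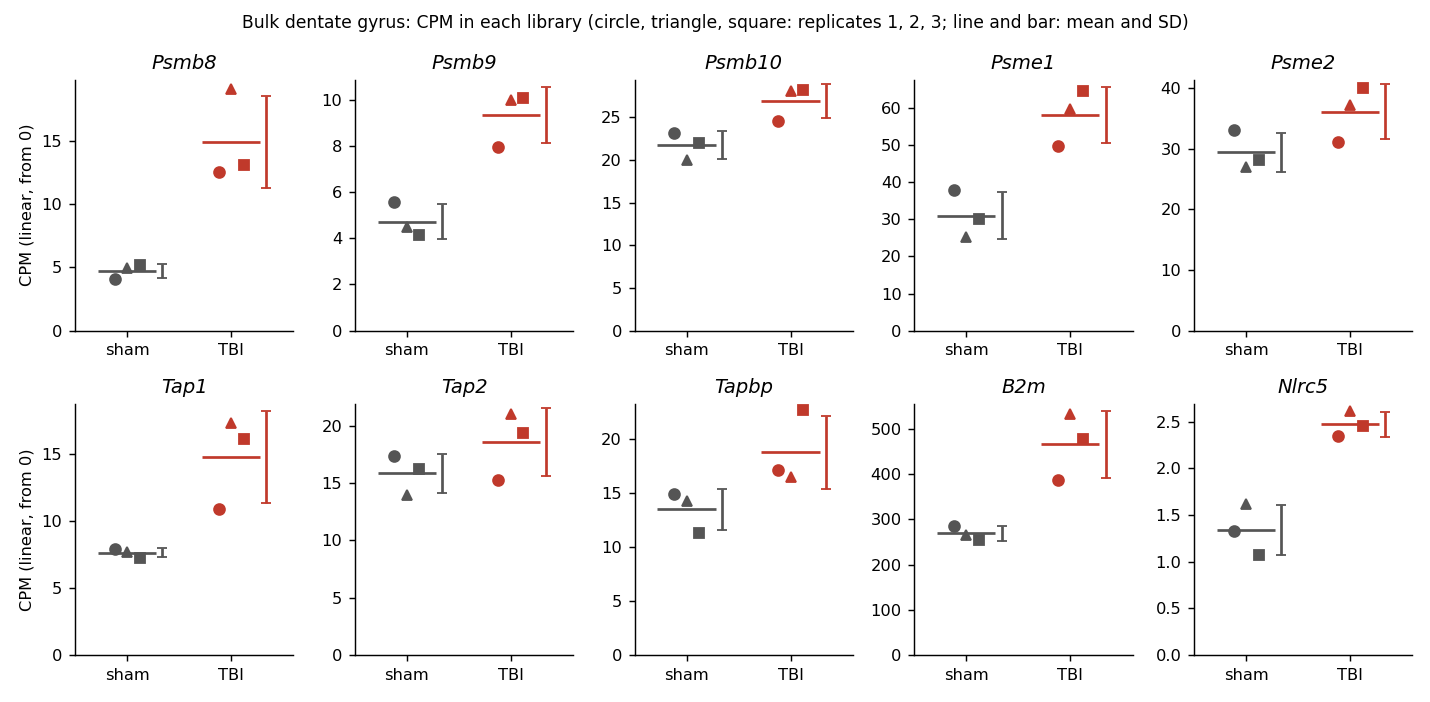
Bulk CPM of the 10 members in each library on linear axes from 0, with sham in grey and TBI in red, replicates as symbols, and the mean and SD (n = 3) as line and bar. The TBI libraries of Psmb8 sit between 12.6 and 19.1 CPM, all above the sham libraries, whereas those of Psme2 and Tap2 overlap sham.

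The 3 inducible catalytic subunits differed unequally. Psmb8, the chymotrypsin-like subunit, was at 4.08, 4.91 and 5.16 CPM in sham 1, 2 and 3 and at 12.6, 19.1 and 13.1 CPM in TBI 1, 2 and 3, which is 4.72 ± 0.563 against 14.9 ± 3.63 (SD, n = 3 each) and a ratio of the means of 3.16. The groups were widely separated, and TBI 2 was the highest library. Psmb9, which takes the caspase-like position, was at 5.56, 4.47 and 4.12 CPM in sham and at 7.97, 10.00 and 10.1 CPM in TBI, a log2 fold change of 0.95 ± 0.19. Psmb10, which takes the trypsin-like position, was at 23.2, 19.95 and 21.95 CPM in sham and at 24.6, 28.0 and 28.1 CPM in TBI, a log2 fold change of 0.27 ± 0.11. Both had every TBI library above every sham library, Psmb10 by a margin of only 0.084 on the log2 scale. Psmb8 was the only member past a log2 fold change of 1.5.

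The standard subunits that the inducible ones replace did not show this difference. Psmb5, Psmb6 and Psmb7 had log2 fold changes of -0.07 ± 0.12, -0.14 ± 0.16 and -0.06 ± 0.12, with TBI and sham libraries overlapping in each. In log2 CPM within each library, the ratio of Psmb8 to Psmb5 was -4.44 ± 0.36 in sham and -2.77 ± 0.37 in TBI, a difference of 1.66. The log2 ratio of Psmb9 to Psmb6 differed by 1.10 and that of Psmb10 to Psmb7 by 0.32. The lowest TBI ratio exceeded the highest sham ratio by 1.11, 0.60 and only 0.07 on the log2 scale in these 3 pairs. The choice of the set used this contrast, and ratios of other gene pairs are not given beside them, so the ratios are a description.

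**Figure D2:**
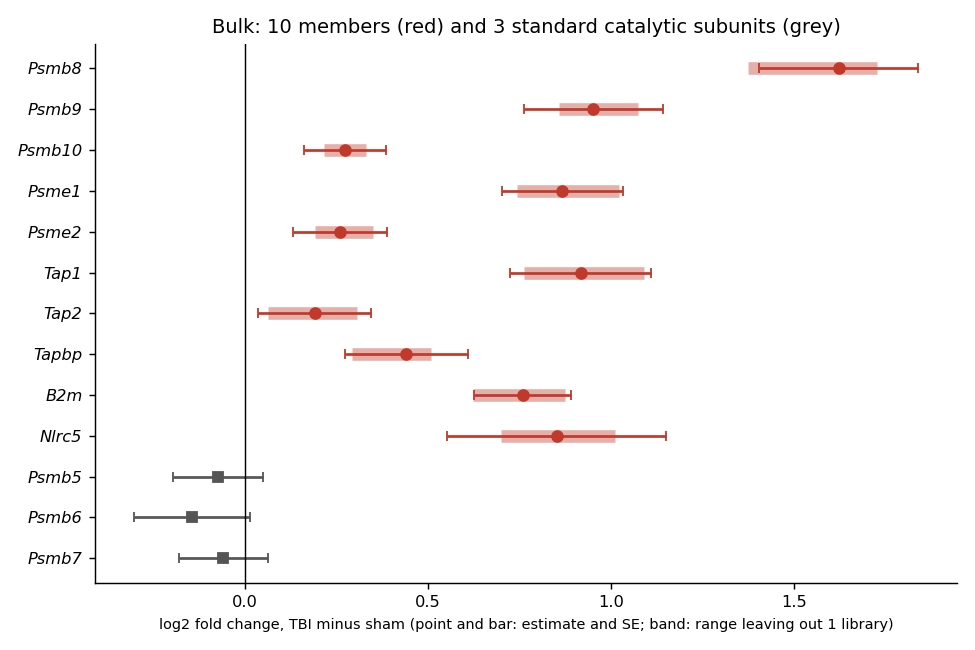
Bulk log2 fold change (TBI minus sham) of the 10 members in red and of the 3 standard catalytic subunits in grey, with the edgeR estimate and SE as point and bar and the range on leaving out 1 library as band. Psmb8 stands at 1.62, the other members between 0.19 and 0.95, and Psmb5, Psmb6 and Psmb7 just under 0.

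Of the PA28 activator, one subunit separated the groups and the other did not. Psme1 was at 37.9, 25.3 and 30.0 CPM in sham and at 49.8, 60.0 and 64.6 CPM in TBI, a log2 fold change of 0.87 ± 0.17 with no overlap. Psme2 was at 33.1, 27.0 and 28.2 CPM in sham and at 31.1, 37.3 and 40.0 CPM in TBI, a log2 fold change of 0.26 ± 0.13, and TBI 1 lay below sham 1. The difference between the 2 subunits was not tested.

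In the peptide transporter, Tap1 was at 7.90, 7.73 and 7.26 CPM in sham and at 10.9, 17.3 and 16.2 CPM in TBI, a log2 fold change of 0.92 ± 0.19 with no overlap. Tap2, its partner in the TAP heterodimer, was at 17.4, 14.0 and 16.2 CPM in sham and at 15.3, 21.1 and 19.4 CPM in TBI, a log2 fold change of 0.19 ± 0.16, and TBI 1 lay below 2 of the sham libraries. Tapbp was at 14.9, 14.2 and 11.3 CPM in sham and at 17.2, 16.4 and 22.7 CPM in TBI, a log2 fold change of 0.44 ± 0.17 with the groups apart by 0.14 on the log2 scale.

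B2m was at 286, 266 and 254 CPM in sham and at 386, 534 and 479 CPM in TBI, which is 269 ± 15.8 against 466 ± 74.4 (SD, n = 3 each) and a log2 fold change of 0.76 ± 0.13. Every TBI library was well above the sham libraries. Nlrc5, the activator of the group, was at 1.33, 1.61 and 1.07 CPM in sham and at 2.35, 2.61 and 2.46 CPM in TBI, a log2 fold change of 0.85 ± 0.30. These Nlrc5 levels rest on 35 to 80 estimated counts per library, and the groups did not overlap.

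The members shared the lowest TBI library and the highest sham library more than the rest of the order. TBI 1 was the lowest TBI library for 9 of the 10 members, and sham 1 was the highest sham library for 8, while the highest TBI library was TBI 2 for 5 and TBI 3 for 5. The order of the libraries over all genes is not given beside these counts, so they are not read as particular to the members. TBI 1, sham 1 and sham 2 came from rats injured in spring and the others from rats injured in autumn. Within spring (1 TBI and 2 sham rats) Psmb8 differed by 1.49 on the log2 scale and within autumn (2 TBI and 1 sham rat) by 1.61, B2m by 0.49 and 0.99, Tap1 by 0.48 and 1.20, and Tap2 by -0.03 and 0.32. Tap2 was the member whose sign was not the same in both periods. Leaving out 1 library at a time kept the log2 fold change of every member above 0, with Psmb8 between 1.37 and 1.73 and Tap2 between 0.06 and 0.31.

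The median profile of the members over the 6 libraries was closest to that of B2m among the members, with a root mean square (RMS) difference of 0.062 on the log2 scale, and farthest from that of Psmb8, with 0.517. The genes outside the set with the most similar centred profile were Cd200r1 (RMS difference 0.064), Tmem86a (0.072), Hhex (0.072), Hexa (0.077) and Mgmt (0.078), over these 6 libraries. Cd200r1 encodes a receptor of myeloid cells and Hexa a lysosomal hexosaminidase. Their log2 fold changes lay between 0.61 and 0.81.

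Among partners of the pathway, class I heavy chains also had a median above that of all genes. Of the 25 class I and class I-like genes measured, 0 passed the FDR of 0.01 by edgeR, and 9 had an unadjusted p under 0.05, all 9 of them higher in TBI, with a median log2 fold change of 0.63 over the list against -0.0029 over all genes. DESeq2, with p-values adjusted over genes with p under 0.05 only, placed 6 of them past that FDR (RT1-A2, RT1-A3, RT1-CE5, RT1-CE7, RT1-CE10 and Fcgrt). RT1-A3, a class I heavy chain gene, was at 12.2, 13.5 and 15.9 CPM in sham and at 31.0, 54.2 and 35.3 CPM in TBI, a log2 fold change of 1.497 ± 0.23 (edgeR adjusted p = 0.196). RT1-CE7 had a log2 fold change of 1.14 ± 0.21 (edgeR adjusted p = 0.196) and RT1-CE10 one of 1.02 ± 0.24 (edgeR adjusted p = 0.212). These heavy chain genes are near-identical copies, so reads may have been split among them and the single values are uncertain. Fcgrt, the class I-like Fc receptor that also pairs with B2m, had a log2 fold change of 0.79 ± 0.22 (edgeR adjusted p = 0.285).

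The constitutive proteasome stayed near a log2 fold change of 0. Of 13 measured genes of the standard 20S core 0 had an unadjusted p under 0.05, with log2 fold changes from -0.14 to 0.09 and a median of -0.02, and Psma1, Psmb6, Psmb4 and Psmb2 had the smallest p of that list. Of 17 genes of the 19S regulatory particle 0 had an unadjusted p under 0.05, with a range of -0.15 to 0.05, and Psmd1, Psmc2, Psmd6 and Psmd2 led that list at -0.15, -0.11, -0.12 and -0.10. Of 8 other activators and assembly factors 1 had an unadjusted p under 0.05, the activator Psme4 with 0.48 ± 0.16. Psme3, Psmg2 and Pomp of that list stood at log2 fold changes of -0.12 ± 0.093, -0.15 ± 0.14 and 0.56 ± 0.81.

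Of 9 partners in peptide loading and trimming 1 had an unadjusted p under 0.05, the tapasin-related Tapbpl, with a log2 fold change of 0.65 ± 0.19. The aminopeptidases Erap1, Lnpep and Npepps stood at 0.27 ± 0.19, -1.46 ± 0.67 and -0.18 ± 0.095. Of 17 measured inducers of the pathway, meaning interferon receptors, interferon regulatory factors and related regulators, 6 had an unadjusted p under 0.05 and all 6 were higher in TBI, while the median of the list was 0.15. The factor Irf8 was at 7.96, 9.43 and 5.51 CPM in sham and at 18.8, 46.5 and 17.9 CPM in TBI, a log2 fold change of 1.83 ± 0.41 (edgeR adjusted p = 0.205). Ifngr1, a chain of the interferon gamma receptor, had 0.77 ± 0.16, Irf9 0.61 ± 0.17 and the class II activator Ciita 1.597 ± 0.43. With DESeq2 adjusted in that narrower way Ifngr1, Irf8 and Irf9 passed the FDR. Over all 89 partners measured in bulk 17 had an unadjusted p under 0.05, and all 17 were higher in TBI.

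In the nuclei the members were unevenly measured. B2m gave 5966 UMIs over the 4 rats, Psme2 1471, Psme1 823, Psmb10 799, Nlrc5 759 and Tap1 214. Psmb9 gave 108 UMIs, and Tapbp 165 to 338 per rat. Psmb8, the member with the largest bulk log2 fold change, gave 10 UMIs of 128681321, of which 1 and 4 were in TBI 1 and TBI 2 and 2 and 3 in the sham and the naïve rat. Tap2 gave 6 UMIs. With so few UMIs a difference in Psmb8 or Tap2 could not be measured, and neither gene passed the filter on low counts in any class. Why these genes gave so few UMIs was not tested.

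Nuclei were clustered, and clusters were named from marker genes (for example "microglia-like"), which left 4 of 23 clusters with 3607 nuclei unnamed. The endothelial-like class was a single cluster of 435 nuclei, 48 to 156 per rat. All 8 endothelial markers in the matrix reached 20 CPM and a log2 fold of 1 over the lower quartile of clusters there. The pericyte markers were also present there, at a summed level of 1495 to 2379 CPM beside 6651 to 10209 CPM for the endothelial markers, and 0 of these lists' markers were at 0 in the class. Astrocyte markers summed to 2358 and 2200 CPM in it in TBI 1 and TBI 2 and to 2640 and 5015 CPM in the sham and the naïve rat. In the astrocyte-like class they summed to 4664 to 8811 CPM. Microglial markers summed to 144 to 307 CPM in the endothelial-like class, against 3431 to 6990 CPM in the microglia-like class. Levels between classes are a description, because the classes were made by clustering these same nuclei.

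The endothelial-like nuclei held the highest mean level over rats of B2m, Psmb9, Psmb10, Psme1, Psme2, Tap1 and Tapbp among the 9 named classes. Their range lay above that of every other named class for B2m, Psmb9 and Psme1 only. For Psmb10, Psme2, Tap1 and Tapbp it overlapped that of the next class. B2m was at 781 and 1269 CPM in TBI 1 and TBI 2 and at 671 and 1337 CPM in the sham and the naïve rat, and the pericyte-like class followed at 59.5 to 238 CPM and the microglia-like class at 62.9 to 242 CPM. The endothelial-like range lay wholly above these, and within each rat it was 5.52 to 10.7 times the microglia-like level. Further down the order of B2m, the astrocyte-like class (74.0 to 176 CPM) overlapped the microglia-like one, and OPC-like (oligodendrocyte precursor) nuclei were at 41.7 to 76.8, oligodendrocyte-like at 28.4 to 70.8, committed oligodendrocyte precursor-like at 13.5 to 39.2, GABAergic neuron-like at 13.4 to 25.2 and glutamatergic neuron-like at 9.68 to 26.1 CPM. From the pericyte-like class down, each class overlapped the next in this order.

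**Figure D3:**
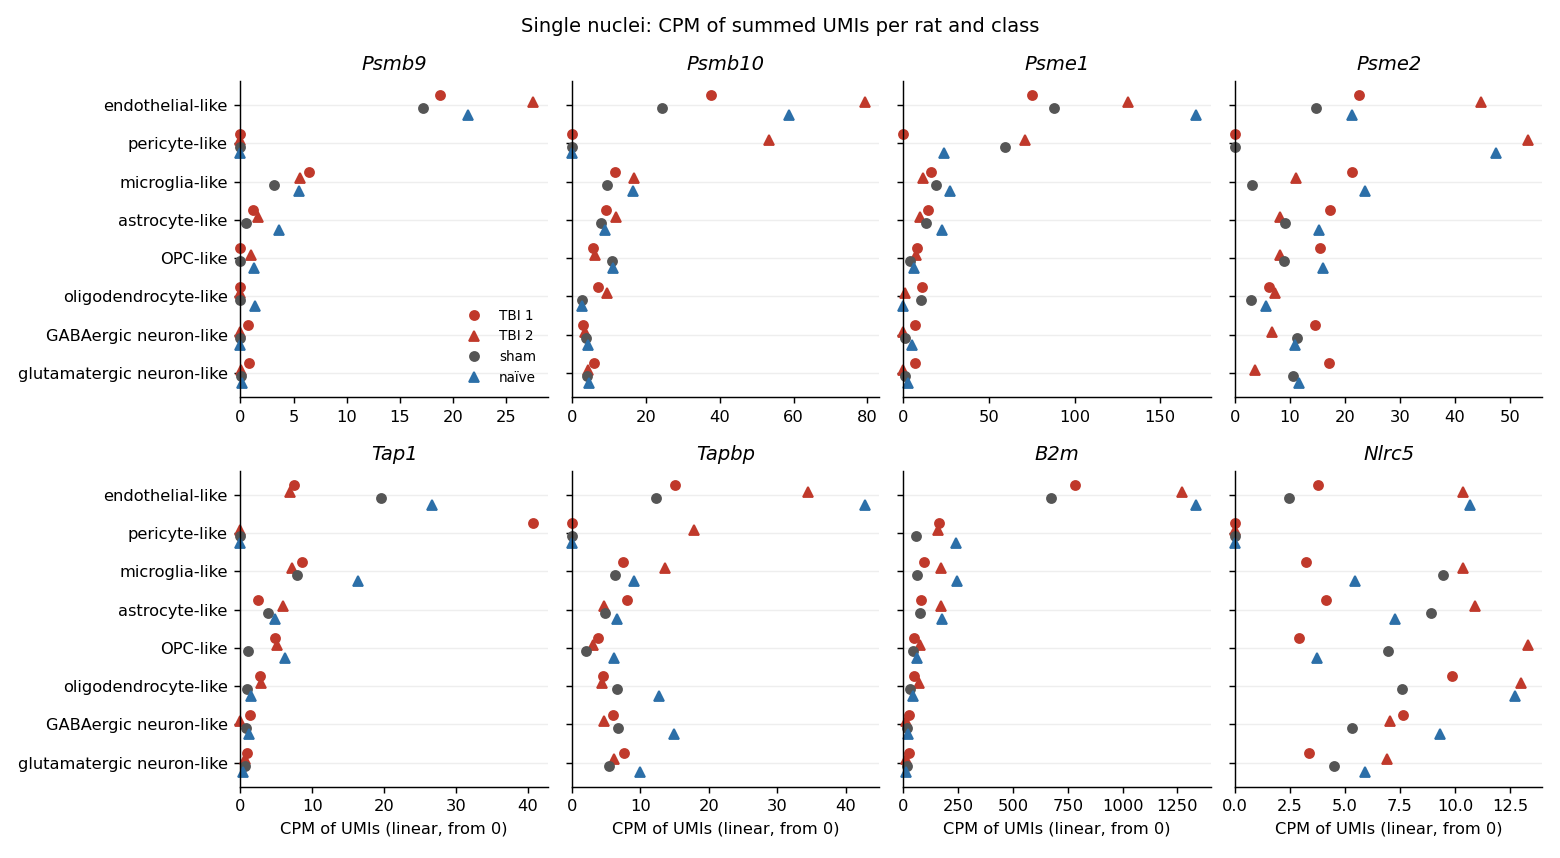
CPM of summed UMIs for 8 members in 8 classes of nuclei, 1 symbol per rat (TBI in red, sham in grey, naïve in blue) on linear axes from 0. The endothelial-like nuclei lie to the right of the other classes for B2m and Psme1, and there the TBI symbols overlap the sham and naïve ones.

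Psme1 was at 75.1 and 131 CPM in the endothelial-like nuclei of TBI 1 and TBI 2 and at 88.2 and 171 CPM in those of the sham and the naïve rat, against 11.2 to 27.3 CPM in the microglia-like and 9.91 to 22.4 CPM in the astrocyte-like class. Psmb9 was at 18.8, 27.6, 17.1 and 21.4 CPM there, in the same order of rats, and at 3.15 to 6.41 CPM in microglia-like nuclei. These Psmb9 levels rest on 4 to 8 UMIs per rat, and the endothelial-like range lay above all other classes. Psmb10 was at 37.6, 79.3, 24.5 and 58.8 CPM in endothelial-like nuclei, 2.596 to 4.74 times the microglia-like level within each rat, although its range overlapped that of rarer classes. Tapbp was higher in endothelial-like than in microglia-like nuclei in 4 of 4 rats, Psme2 in 3 and Tap1 in 2 (the sham and the naïve rat). In the endothelial-like class Tap1 rests on 2 to 8 UMIs per rat, Tapbp on 4 to 10 and Psme2 on 4 to 13. The mean of Psme2 there, 25.9 CPM, was close to that of the pericyte-like class, 25.2 CPM on 5 UMIs.

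The endothelial-like class did not hold the highest mean of Nlrc5, but its level there rests on only 1 to 3 UMIs per rat. The mean level of Nlrc5 was highest in the oligodendrocyte-like nuclei, at 9.87 and 13.01 CPM in TBI 1 and TBI 2 and 7.58 and 12.7 CPM in the sham and the naïve rat. Its ranges in the astrocyte-like (4.13 to 10.9 CPM), GABAergic neuron-like, microglia-like and endothelial-like (2.45 to 10.7 CPM) classes all overlapped that of the oligodendrocyte-like class, while the glutamatergic neuron-like range (3.35 to 6.93 CPM) lay below it and the pericyte-like class had 0 UMIs. Psmb8 had 3 of its 10 UMIs in microglia-like and 4 in glutamatergic neuron-like nuclei, and 0 in the 435 endothelial-like nuclei, which allows a share of nuclei with a UMI of up to 0.69%.

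A B2m UMI was found in 69.5% (95% exact binomial interval 58.4% to 79.2%) and 76.9% of the endothelial-like nuclei of TBI 1 and TBI 2 and in 68.5% and 75.0% of those of the sham and the naïve rat. In glutamatergic neuron-like nuclei, which should hold little of it, the share was 2.46% to 6.94%. Matrix entries stored as 0 do not count in these shares. In glutamatergic neuron-like nuclei they were 5.83% of the stored B2m entries in TBI 1 and 77.9% in TBI 2. After thinning every nucleus to 500 UMIs the endothelial-like share was 27.5% to 47.9% and the glutamatergic neuron-like one 0.602% to 1.39%. Intervals and limits cover counting error only.

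No member passed the test between TBI and control nuclei. With edgeR's quasi-likelihood test on UMI sums per rat, 41 tests of members were made over all nuclei and 7 classes, and 0 passed an FDR of 0.01, nor did any have an unadjusted p under 0.05. Over all genes 0% passed the FDR in all nuclei and in each class, and 3.44% of genes in all nuclei, 2.27% in microglia-like, 12.5% in astrocyte-like, 4.1% in endothelial-like, 2.19% in oligodendrocyte-like, 3% in OPC-like, 1.19% in glutamatergic neuron-like and 1.37% in GABAergic neuron-like nuclei had an unadjusted p under 0.05. In pericyte-like nuclei, where no member passed the low-count filter, this share was 4.88%. DESeq2 called 0 members, 0.00627% of genes in all nuclei and 0.811% of the astrocyte-like genes. With 2 rats against 2 an exact permutation test of a single value cannot go below p = 0.333. The edgeR p-values rest on 4 rats and on a spread that the fit draws in part from all genes. Among the controls this spread includes the difference between the sham and the naïve rat.

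Over all nuclei B2m was at 43.8 and 65.1 CPM in TBI 1 and TBI 2 and at 31.5 and 49.8 CPM in the sham and the naïve rat, a log2 fold change of 0.35 ± 0.29 (SE, edgeR adjusted p = 0.982). The groups overlapped. Psmb9 had 0.37 ± 0.55, Psmb10 0.23 ± 0.31, Tap1 0.14 ± 0.39 and Psme1 0.12 ± 0.46. Nlrc5 had -0.01 ± 0.41, Psme2 -0.09 ± 0.46 and Tapbp -0.24 ± 0.36.

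**Figure D4:**
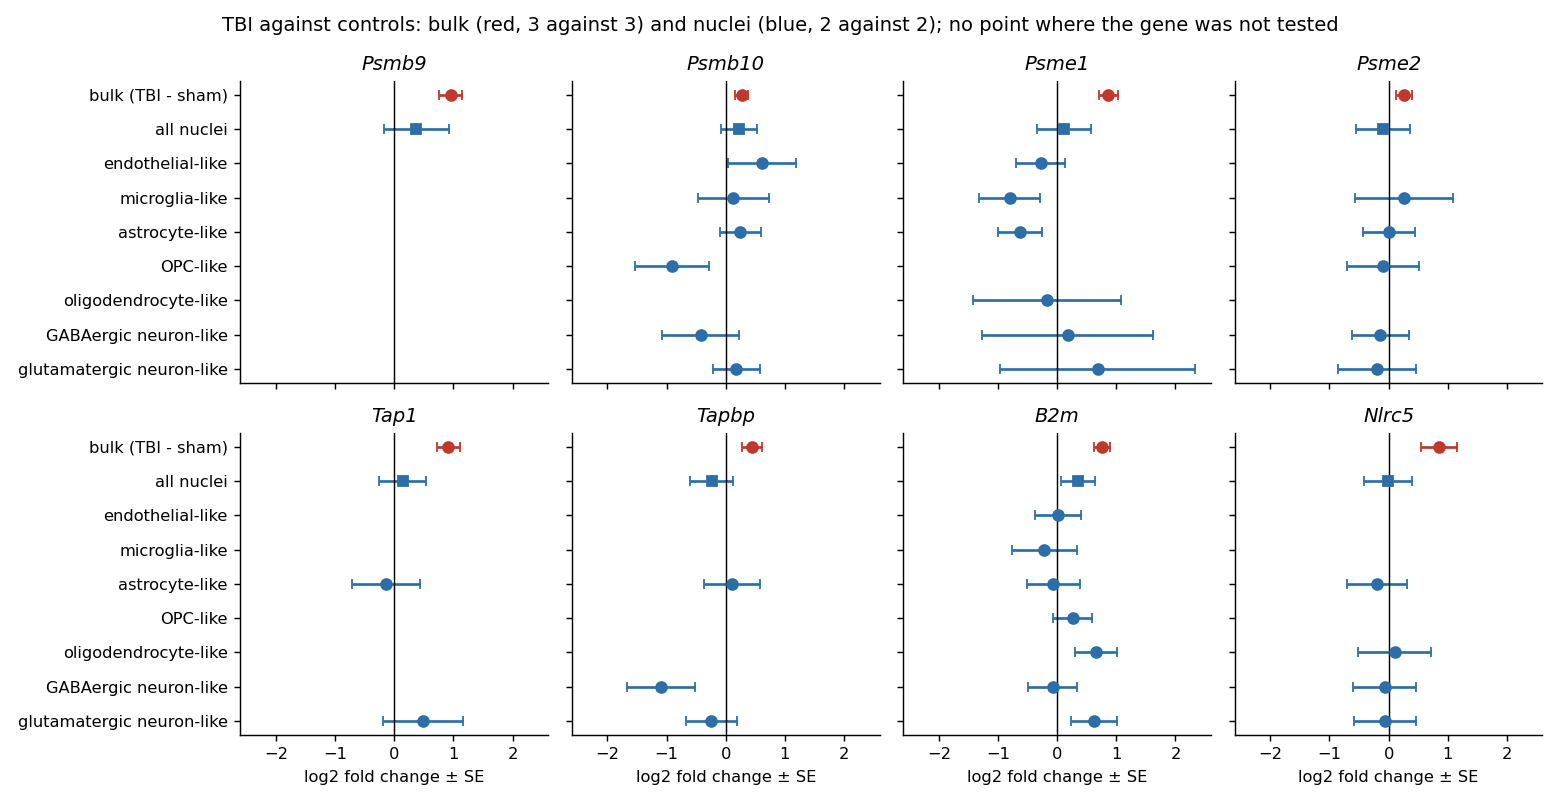
Log2 fold change with SE of 8 members in bulk (red, 3 TBI against 3 sham) and in nuclei (blue, 2 TBI against 2 controls), with no point where the gene did not pass the low-count filter. The bulk points lie above 0 and the nucleus points lie on both sides of it, with SEs of 0.29 to 1.65.

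Among the classes the member nearest to the FDR threshold was Psme1 in astrocyte-like nuclei (edgeR adjusted p = 0.553). Its log2 fold change was -0.63 ± 0.37. The groups overlapped, at 14.1 and 9.91 CPM in the TBI rats and 13.2 and 22.4 CPM in the controls. An alternative, added after the data were seen, counted each matrix entry stored as 0 as 1 UMI. The log2 fold change was then -0.22 ± 0.34, at 14.7 and 29.4 against 16.6 and 31.2 CPM. B2m in oligodendrocyte-like nuclei was at 47.6 and 70.8 CPM in the TBI rats and at 28.4 and 42.4 CPM in the controls. This B2m difference was 0.66 ± 0.35 on the log2 scale (edgeR adjusted p = 0.9997). Under that alternative the B2m groups overlapped, at 47.9 and 89.0 against 33.3 and 57.4 CPM. In microglia-like nuclei B2m had -0.22 ± 0.54 and in endothelial-like nuclei 0.01 ± 0.39, with overlapping groups in both. The microglia-like levels were 94.1 and 170 CPM in the TBI rats, 62.9 CPM in the sham and 242 CPM in the naïve rat. Leaving out 1 rat at a time moved the microglia-like value between -0.87 and 1.03, so its sign depended on the rats included. Psme1 in microglia-like nuclei was at 16.0 and 11.2 CPM in the TBI rats and at 18.9 and 27.3 CPM in the controls, a log2 fold change of -0.80 ± 0.51 (edgeR adjusted p = 0.9992) on 12 to 15 UMIs per rat. Under the same alternative the log2 fold change was -0.58, and the groups overlapped at 15.9 and 27.6 against 23.2 and 41.3 CPM. Psmb9 in microglia-like nuclei, at 6.41 and 5.58 CPM in the TBI rats and 3.15 and 5.47 CPM in the controls, had 2 to 7 UMIs per rat and was not tested. Tapbp in GABAergic neuron-like nuclei had -1.09 ± 0.58 (edgeR adjusted p = 0.9998), at 5.97 and 4.71 CPM in the TBI rats and 6.74 and 14.97 CPM in the controls. Without the naïve rat this value was -0.37, and without the sham rat -1.57.

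Entries stored as 0 were frequent for several members. In TBI 1 such entries were 10.1% of the stored Psme1 entries and in TBI 2 81.8%, with 59.5% and 64.6% in the sham and the naïve rat, and for B2m they were 3.91%, 45.9%, 24.2% and 44.4%. Nlrc5 was least touched among the 8 measured members, with 0.746% to 15.1%. Their share also differed by class. For B2m they were 0% to 0.826% of stored entries in endothelial-like nuclei and 5.83% to 77.9% in glutamatergic neuron-like nuclei.

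**Figure D5:**
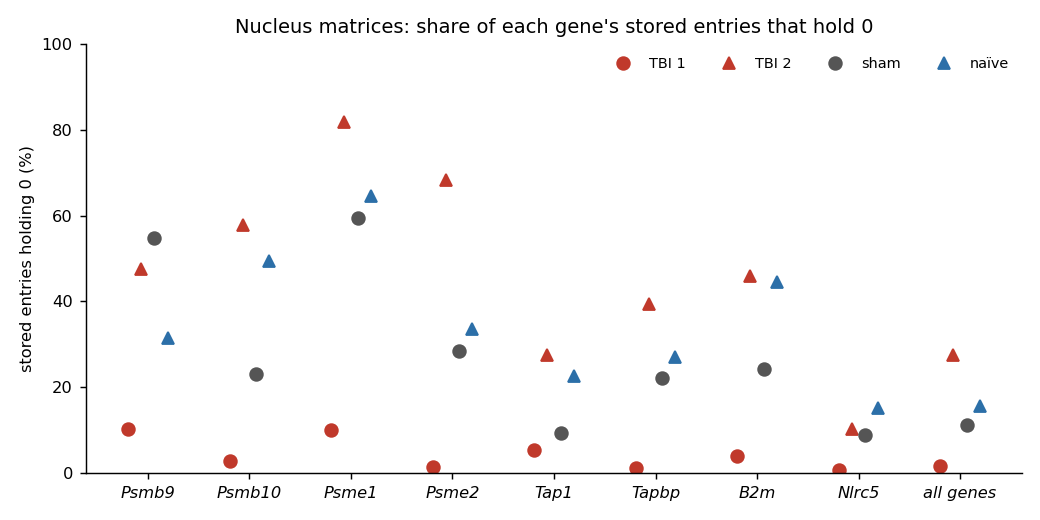
Share of stored matrix entries that hold the value 0, in percent, for 8 members and for all genes, 1 symbol per rat (TBI in red, sham in grey, naïve in blue). TBI 1 is the lowest for each member, and Psme1 reaches 81.8% in TBI 2 against 27.5% for all genes.

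Psme1 in glutamatergic neuron-like nuclei shows how this touches a value. It had 133 UMIs in TBI 1 and 0 in TBI 2, 27 in the sham and 62 in the naïve rat, and all 242 stored Psme1 entries of TBI 2 in this class held 0. With each such entry counted as 1 UMI, the counts were 154, 242, 166 and 329 and the log2 fold change went from 0.69 ± 1.65 to 0.0095 ± 0.38. Under that alternative 0 members passed the FDR of 0.01, and the endothelial-like class kept the highest mean level of B2m, at 631 to 1250 CPM, and of Psme1, at 74.6 to 160 CPM. How these entries arose, and their part in the comparison of TBI with control, was not tested.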

How the data were processed

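Bulk libraries (polyA RNA) were quantified by the authors with kallisto, and the deposited table holds estimated counts (expected counts) of 31715 transcripts. A deposited second table from the authors holds log2 CPM for 14166 genes, filtered to drop unannotated, rare and least variable features. Gene counts were worked back from those log2 values and rounded to whole numbers. This replaced the gene counts the planned test assumed. RefSeq named 13778 of the genes by their Entrez numbers. Nuclei (10x 3′) were processed by the authors with Cell Ranger against Rnor_6.0, exons and introns together, and the deposited matrices hold whole UMI counts, with some entries stored as 0 by a step that the sources used here do not describe.

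Filters kept nuclei with 500 UMIs or more and 300 features or more, whose log10 gene number was at least 0.8 of the log10 UMI number. Mitochondrial UMIs were limited to 5% and ribosomal ones to 2%. Nuclei were clustered in Seurat 5.3.0 on its most variable genes with CCA integration, and doublets were kept. A cluster took a name where at least 3 markers reached 20 CPM and a log2 fold of 1 over the lower quartile of clusters, and led the runner-up class by 0.5. This rule was set after the clusters were seen, and names can differ from the study's.

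The main test was the quasi-likelihood test of edgeR 4.0.16 (TMM, Benjamini-Hochberg over all genes tested, FDR of 0.01), on all deposited genes in bulk and on UMI sums per rat and class after filterByExpr in nuclei. DESeq2 1.42.0 and limma 3.58.1 (R 4.3.3) were alternatives. The fits were tested on simulated data. Bulk CPM divide the worked-back counts by the gene total.

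The members, gene lists and tests were chosen with earlier results of these data known. The text names the members, up to 4 genes per pathway list with the smallest bulk edgeR p, and the 5 genes nearest to the members' median bulk profile. Psmb5 and Psmb7 were added, after their values were seen, as counterparts of inducible subunits.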

Additional observations from a re-analysis of the deposited data

Results flagged for a closer look

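Psmb10, the inducible trypsin-like subunit, lay on opposite sides of the controls in different classes of nuclei. In astrocyte-like nuclei it was at 9.23 and 11.9 CPM in TBI 1 and TBI 2 and at 7.88 and 9.01 CPM in the sham and the naïve rat, a log2 fold change of 0.25. In OPC-like nuclei it was at 5.81 and 6.14 CPM in the TBI rats and at 10.9 and 11.1 CPM in the controls, a log2 fold change of -0.91 on 6 to 11 UMIs per rat. In GABAergic neuron-like nuclei it was at 2.99 and 3.53 CPM in the TBI rats and at 3.90 and 4.45 CPM in the controls, a log2 fold change of -0.43 on 9 to 11 UMIs per rat. These 2 contrasts (0.25 against -0.91 and against -0.43) stood out because both TBI rats were above both controls in 1 class and below them in the other. The difference between classes was not tested. In OPC-like nuclei 70.0% of the stored Psmb10 entries of TBI 2 and 0% of those of TBI 1 held the value 0. The part of entries stored as 0 in this separation was not tested. With each such entry counted as 1 UMI, Psmb10 was at 5.75 and 16.4 against 12.9 and 14.5 CPM in OPC-like nuclei, a log2 fold change of -0.33. It was then at 9.64 and 18.1 against 8.76 and 12.9 CPM in astrocyte-like nuclei and at 3.29 and 9.95 against 5.97 and 10.4 CPM in GABAergic neuron-like nuclei, so that the groups overlapped in all 3 classes.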

How the results depend on the processing

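In bulk the number of genes called changed from 0 by edgeR to 169 by DESeq2 and 475 by DESeq2 adjusted over genes with p under 0.05 only. No call appeared on leaving out a replicate (0 to 0). With the replicate number as a replicate block 1 gene was called. Same-numbered libraries did not all deviate together (correlations of 0.35, 0.17 and -0.03), so the numbers are not a pairing, and in nuclei no paired analysis was possible because the control rats share fewer than 2 numbers with the TBI rats. The median bulk log2 fold change of the members was 0.80, and 0.69 to 0.88 without 1 replicate, lowest without TBI 2. Of 130 alternative values of single members in bulk 0 changed sign, 124 were counted as within the spread and 6 as moved. The set was chosen by this contrast, so these counts are a description. The median of the pathway partners was 0.02, and -0.039 to 0.071 without 1 replicate, below 0 without sham 2 (-0.039) and without TBI 2 (-0.024).

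In nuclei 0 of 383 alternative fits of members passed the FDR of 0.01, and 62 had the other sign. The number of genes called was 0 in each main comparison. DESeq2 called 1 gene over all nuclei and 102 in astrocyte-like nuclei. Without the low-count filter 12 genes were called in microglia-like, 372 in astrocyte-like, 14 in oligodendrocyte-like, 18 in OPC-like, 34 in GABAergic neuron-like and 3 in pericyte-like nuclei, and a marker gate in place of clusters called 2 in pericyte-like nuclei. Leaving out 1 rat called 0 to 58 genes over all nuclei (50 without TBI 1, 58 without TBI 2), 0 to 21 in microglia-like, 0 to 4 in astrocyte-like, 0 to 11 in oligodendrocyte-like, 0 to 18 in OPC-like, 0 to 22 in glutamatergic neuron-like, 0 to 51 in GABAergic neuron-like, 0 to 2 in endothelial-like and 0 to 26 in pericyte-like nuclei, with the lone rat of an arm assumed to vary like the others. The cause was not tested. The pericyte-like class was not run at 1000 UMIs. The mean share of endothelial-like nuclei with a B2m UMI was 72.5%, and 40.3% after thinning, which follows from fewer UMIs per nucleus.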

Other observations

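Nuclei outside the tested classes also held members. In committed oligodendrocyte precursor-like nuclei, 308 in all, B2m was at 39.2 and 13.5 CPM in TBI 1 and TBI 2 and at 25.9 and 17.9 CPM in the sham and the naïve rat, on 2 to 5 UMIs per rat. In the unnamed clusters B2m was at 46.1 and 141 CPM in the TBI rats and at 22.0 and 68.3 CPM in the controls, and Psme1 at 14.5, 16.7, 2.44 and 20.4 CPM in the same order. The largest of these clusters, with 2030 nuclei, was led by mitochondrial genes, and its margin of 0.465 over the next class fell short of the 0.5 needed for a name.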
